A study of Danio rerio with 12 samples.

Results

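Liver RNA of krasV12 transgenic zebrafish was examined for non-additive effects of 2 treatments, TDCIPP and DOX. All 12 libraries of the series entered as a 2 by 2 design of 4 groups with 3 libraries each. The groups were TDCIPP, DOX, TDCIPP given together with DOX (TDCIPP+DOX), and DMSO as solvent control. Every fish was 3 months old and, per the series title, of the krasV12 line, so the transgene was shared by all groups. TDCIPP stands for the flame retardant tris(1,3-dichloro-2-propyl)phosphate. What DOX stands for is not in the labels, and neither are a dose, duration, sex or hour of collection, the promoter of the transgene or whether livers were pooled. Of 34028 genes in the deposited table, 19160 passed the low count filter and were tested. The quantity reported is the log2 interaction: the TDCIPP effect with DOX (TDCIPP+DOX against DOX) less the TDCIPP effect without DOX (TDCIPP against DMSO). It is 0 where the 2 effects add up on the log2 scale, negative where the combined level lies below the sum of the effects, and positive where it lies above.

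The liver adapts its transcript levels to hormones, feeding, light and injury through regulators that act on overlapping genes. Cortisol acts through the glucocorticoid receptor, sterol and fatty acid synthesis are set by SREBP factors, ribosome production follows growth signals, and the circadian clock imposes a daily rhythm on many of these genes. RAS proteins signal through the MAPK cascade, whose activity induces its own inhibitors of the sprouty and dual-specificity phosphatase families. When 2 treatments touch the same regulator, their combined effect need not be the sum of the separate ones, and a 2 by 2 design measures that difference.

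The reads assigned to genes numbered 28621536 to 40877342 per library. Levels are in CPM (read counts relative to the TMM-scaled library size), log2 values come from edgeR's quasi-likelihood fit with their SE, and p-values are adjusted over all genes tested. Whether replicate libraries came from different fish is not stated in the labels, so the spread behind the p-values is that between libraries and may be technical in part. DOX replicate 3 stood apart, with r of log2 CPM of 0.818 and 0.811 with the other DOX libraries against 0.944 between those, and it was high in oocyte and mitosis transcripts. DMSO replicate 3 and TDCIPP+DOX replicate 3 were high in intestine transcripts, as was TDCIPP replicate 1 to a lesser degree. The 19 hepatocyte marker genes summed to 49012 to 98739.6 CPM per library, lowest in DOX replicate 3. In bulk liver, fewer cells of a type and less RNA per cell cannot be told apart.

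In edgeR, 5 of 19160 genes departed from additive effects (0.0261%), 3 above the sum of the effects (0.0157%) and 2 below it (0.0104%). The 2 below were per2 and the gene model Novel00094, and the 3 above were PLEKHH3, si:dkey-22f5.9 and sst1.1. At an unadjusted p under 0.05 there were 1055 genes above (5.51%) and 1402 below (7.32%). At an adjusted p under 0.1 there were 24, of which 18 were above and 6 below. DESeq2 called 286 genes, among them all 5, and limma-voom called 0 (1786 in either direction at an unadjusted p under 0.05). With all libraries in edgeR that total was 2457. It was 1515 to 3581 on leaving out 1 library and 1512 without the 4 libraries high in oocyte or intestine transcripts. Counts of list members under these settings are to be read beside such totals. The biological coefficient of variation was 54.5%.

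Effects of either treatment were looked up in the other background. Whether DOX and TDCIPP effects carried over to different degrees was not tested. DOX moved 753 genes up without TDCIPP, with a median log2 change of 1.48. In the libraries with TDCIPP, which are separate, 671 of these 753 (89.1%) lay on the same side against 49.3% of all genes, and the median was 0.63. There 188 of the 753 rose and 1 fell, against 2.03% and 2.16% of all genes. The 562 genes that fell with DOX had a median of -1.37 without and -0.83 with TDCIPP, and 191 of them fell and 3 rose there. The 388 genes that rose with DOX in the presence of TDCIPP had medians of 1.9 there and 1.25 without TDCIPP. For the 413 that fell these were -1.41 and -0.99. Each median was larger where the genes were called, and the same values had picked them, so no weakening is read from these medians. In the presence of DOX, TDCIPP changed 403 genes (2.1%), and in its absence 8 (0.0418%). The 403 became 0 without any 1 TDCIPP+DOX library, and a gap between such counts is not a test of a difference. Of the 136 that rose with TDCIPP on top of DOX, 101 lay on the same side without DOX (74.3% against 51.5% of all genes) and 0 passed there. Of the 267 that fell, 226 lay on the same side without DOX (84.6% against 48.4%), 1 fell and 1 rose. Across all genes the TDCIPP effects without and with DOX had a Pearson's r of 0.06 and a Spearman's rho of 0.09, or 0.23 and 0.31 without DOX replicate 3. For the DOX effects without and with TDCIPP, r was 0.16 and rho 0.2, or 0.26 and 0.33 without that library. In the 8536 genes with a mean of at least 5 CPM, r and rho were 0.29 and 0.38 for DOX. For TDCIPP they were 0.05 and 0.16 there. Genes are not independent replicates, and these correlations are descriptions.

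**Figure D1:**
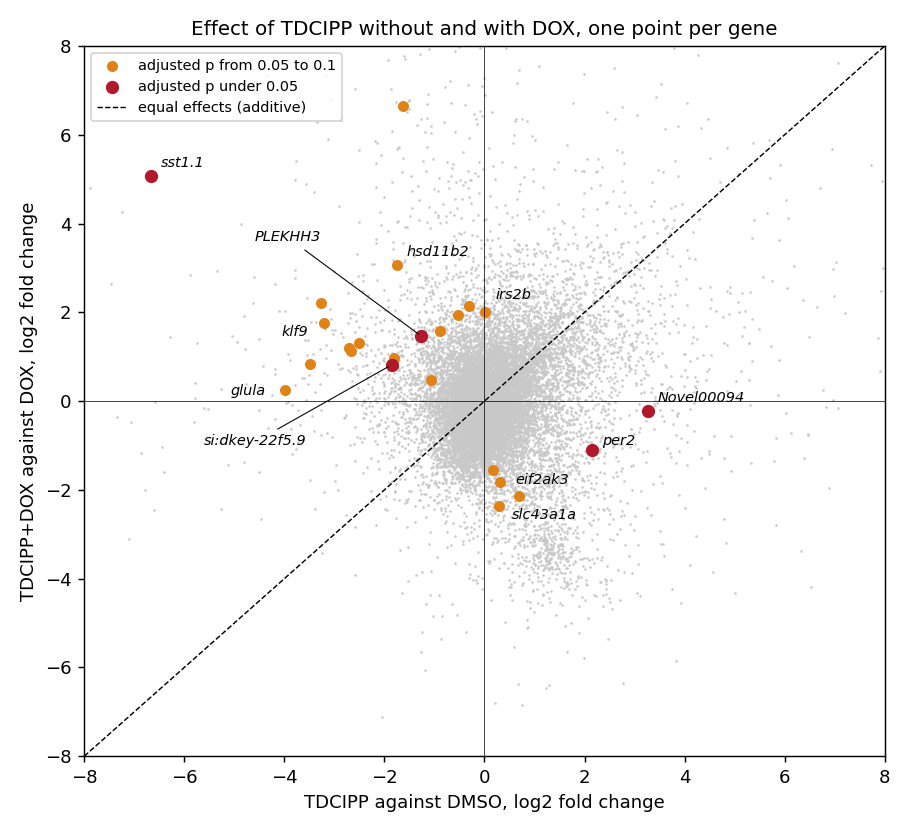
Log2 fold change of TDCIPP against DMSO (x axis) and of TDCIPP+DOX against DOX (y axis) for 19110 genes, with 50 genes beyond the axes. Genes on the dashed line have equal effects; the 5 genes past an adjusted p of 0.05 and those from 0.05 to 0.1 lie away from it, mostly at upper left (negative without DOX, positive with it) and at lower right.

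Most of the 24 genes at an adjusted p under 0.1 shared a form. In 17 of the 18 genes above the sum, both treatments alone gave a lower level than DMSO, and in 6 of the 6 below the sum both alone gave a higher one. Over all genes tested the same form was seen in 49.6% of genes with a positive and 55.8% of those with a negative interaction. At an unadjusted p under 0.05 it was seen in 79% of genes above the sum and 76.7% of those below. The interaction itself is computed from these effects, so picking genes by it favours this form. Departures kept their direction on the CPM scale in 24 of 24 genes. In 17 of the 18 genes above the sum, adding up the separate falls in CPM would give a level below 0. On that scale the sum is not a possible level, so the direction of these 17 was fixed in advance and adds no support.

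The clearest departure was in per2, which encodes a period protein, a repressor in the circadian clock whose transcription is induced by light in zebrafish. It stood at 2.405, 2.13 and 2.15 CPM with DMSO, 12.1, 9.47 and 8.27 with TDCIPP, 27.5, 41.7 and 27.99 with DOX and 15.1, 14.9 and 15.4 with both. The 4 groups did not overlap, and the 3 combined libraries lay between the TDCIPP and DOX groups. TDCIPP raised per2 without DOX (log2 change 2.15, edgeR adjusted p = 0.0102) and lowered it with DOX (-1.1, edgeR adjusted p = 0.0397). Additive effects would have given 144 CPM, so the observed level was 0.105 times that (log2 interaction -3.25 ± 0.31, edgeR adjusted p = 0.00788). The gene lies on chromosome 2 per the deposited table. Its value ranged from -3.37 to -3.03 when each library was left out in turn. The adjusted p lay above 0.05 on leaving out DMSO replicate 2 (0.0649), DMSO replicate 3 (0.0534) or TDCIPP+DOX replicate 1 (0.0679), 2 (0.0721) or 3 (0.0596).

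Novel00094, a gene model on chromosome 10 with no Ensembl entry and no name, was named after its values were seen. It stood at 0.545, 0.63 and 0.627 CPM with DMSO, 7.39, 4.89 and 5.22 with TDCIPP, 5.76, 3.94 and 4.51 with DOX and 2.71, 4.42 and 5.0002 with both. Each treatment alone raised it to about the same level (log2 changes 3.27 for TDCIPP, edgeR adjusted p = 0.0102, and 2.97 for DOX, adjusted p = 0.00379), and both together gave no more than either (log2 interaction -3.5 ± 0.45, edgeR adjusted p = 0.0469). When each library was left out in turn, Novel00094 passed only without DOX replicate 3.

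PLEKHH3, on chromosome 3, encodes a protein with pleckstrin homology and FERM domains. Its level was 72.3, 97.7 and 51.2 CPM with DMSO, 28.1, 31.1 and 33.1 with TDCIPP, 43.5, 31.02 and 32.2 with DOX and 87.6, 83.2 and 123 with both. The combined libraries lay above all TDCIPP and all DOX libraries and overlapped with DMSO. It fell with DOX alone (log2 change -1.05, edgeR adjusted p = 0.0366), was -1.26 with TDCIPP alone (adjusted p = 0.152), and rose when TDCIPP was added to DOX (1.46, edgeR adjusted p = 0.034). The log2 interaction was 2.72 ± 0.37, edgeR adjusted p = 0.0469, and it did not pass in any of the 12 fits that left out 1 library (2.47 to 2.94, adjusted p = 0.0534 to 0.183).

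The remaining 2 genes were also named after their values were seen. The unnamed gene si:dkey-22f5.9, on chromosome 21, had the same form at a higher level: 274, 335 and 285 CPM with DMSO, 81.7, 71.7 and 94.2 with TDCIPP, 121, 199.6 and 116 with DOX and 221, 295 and 255 with both. It fell with TDCIPP alone (log2 change -1.85, edgeR adjusted p = 0.0338) and with DOX alone (-1.04, adjusted p = 0.0304), and the combined libraries overlapped with DMSO (log2 interaction 2.67 ± 0.34, edgeR adjusted p = 0.0469). On chromosome 15, sst1.1 encodes somatostatin, a hormone of pancreatic delta cells and the brain. Summed over the libraries of a group it had 84 reads with DMSO, 1 with TDCIPP, 5 with DOX and 228 with both. Its level was 1.59, 1.75 and 0.582 CPM with DMSO, 0, 0 and 0.0244 with TDCIPP, 0.0292, 0 and 0.0876 with DOX and 1.23, 0.693 and 2.76 with both. The 2 groups with 1 treatment were thus at or near 0 and the other 2 were not. The fitted interaction of 11.74 ± 1.56, edgeR adjusted p = 0.0469 rests on these few reads and depends on how near-zero counts are handled. When each library was left out in turn, sst1.1 passed only without DOX replicate 3, and si:dkey-22f5.9 only without DMSO replicate 1, DOX replicate 2 or DOX replicate 3.

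**Figure D2:**
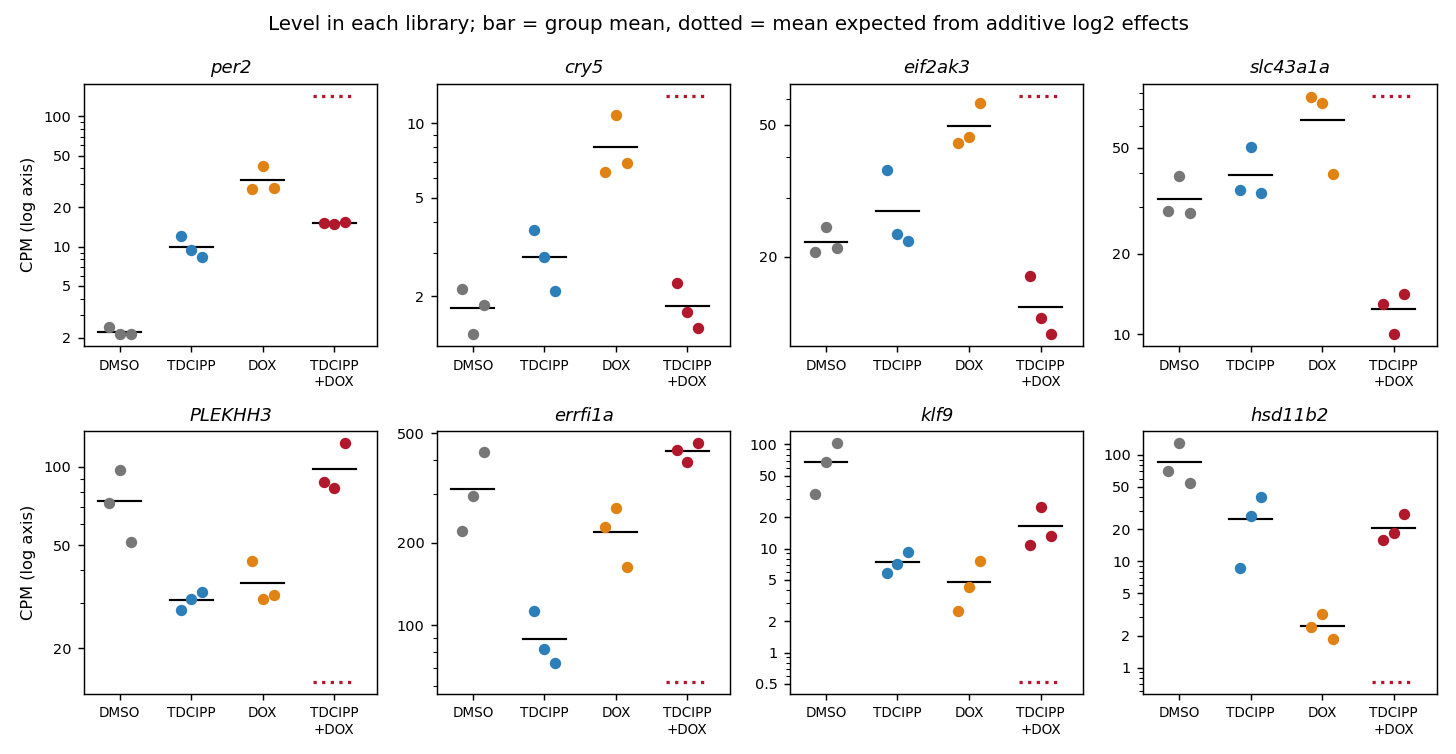
CPM on a log axis in each of the 12 libraries for 8 genes with small interaction p-values, with group means as bars and, dotted, the combined mean that additive log2 effects would give. In the upper row the combined libraries lie below the dotted line (per2 15.1 against 144 CPM on average), and in the lower row above it.

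Clock genes had interactions of both signs. Of 39 clock and clock-output genes tested, 1 (per2) passed, against 0.0261% of all genes. At an unadjusted p under 0.05, 5 lay above the sum and 6 below it (12.8% and 15.4%, against 5.51% and 7.32% of all genes), and the median was -0.04 against -0.13 over all genes (-0.21 to 0.11 on leaving out 1 library). DOX alone moved 10 of them up and 10 down, against 3.93% and 2.93% of all genes. The gene cry5, of the cryptochrome and photolyase family, stood at 2.13, 1.41 and 1.84 CPM with DMSO, 3.71, 2.88 and 2.097 with TDCIPP, 6.35, 10.8 and 6.898 with DOX and 2.26, 1.72 and 1.49 with both. DOX raised it without TDCIPP (log2 change 2.16, edgeR adjusted p = 0.00992), TDCIPP lowered it in the presence of DOX (-2.13, edgeR adjusted p = 0.0322), and the combined libraries overlapped with DMSO (log2 interaction -2.82 ± 0.48, edgeR adjusted p = 0.0867). The heme receptor nr1d2a (REV-ERB beta), a repressor in the clock that was picked after its values were seen, went the other way. It stood at 61.98, 157 and 247 CPM with DMSO, 28.9, 18.3 and 34.3 with TDCIPP, 15.2, 20.9 and 33.1 with DOX and 53.1, 61.4 and 57.9 with both. Every library with 1 treatment lay below every combined library, and every DMSO library lay above these (log2 interaction 3.83 ± 0.64, edgeR adjusted p = 0.0867). The labels do not give the hour at which livers were taken, and its part in these levels was not tested.

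The glucocorticoid list, which holds responsive genes along with receptors and cortisol enzymes such as hsd11b2, had a positive median interaction. Of 26 tested, 0 passed, 21 were above 0 and 5 below it, and the median log2 interaction was 0.65 (-0.13 over all genes). Above the sum lay 8 (30.8%) and below it 0 at an unadjusted p under 0.05, against 5.51% and 7.32% of all genes. The median TDCIPP effect was -0.89 without and 0.09 with DOX, and the median DOX effect was -0.43 without and 0.05 with TDCIPP. With DOX alone 6 members fell and 0 rose (2.93% and 3.93% of all genes), and with TDCIPP alone 0 fell and 0 rose (0.0313% and 0.0104% of all genes). The median interaction stayed between 0.48 and 0.91 when 1 library was left out and was 0.62 without the 4 libraries that held oocyte or intestine transcripts. Klf9, a transcription factor that the glucocorticoid receptor induces, stood at 33.1, 68.5 and 103 CPM with DMSO, 5.76, 7.11 and 9.31 with TDCIPP, 2.52, 4.27 and 7.66 with DOX and 10.9, 24.8 and 13.2 with both. The libraries with 1 treatment were all below 10 CPM, the combined ones were above them, and the DMSO ones were highest. DOX lowered klf9 (log2 change -3.82, edgeR adjusted p = 0.00687), TDCIPP gave -3.2, edgeR adjusted p = 0.0797, and additive effects would have left 0.524 CPM (log2 interaction 4.96 ± 0.72, edgeR adjusted p = 0.0623).

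Other members of that list stood as follows. For hsd11b2, the enzyme that inactivates cortisol, the level was 71.4, 129 and 54.8 CPM with DMSO, 8.58, 26.6 and 40.3 with TDCIPP, 2.398, 3.17 and 1.86 with DOX and 15.9, 18.4 and 27.7 with both. DOX lowered it below every other library, and TDCIPP raised it in the presence of DOX (log2 change 3.06, edgeR adjusted p = 0.0333), with a log2 interaction of 4.82 ± 0.73, edgeR adjusted p = 0.0774. The EGF receptor feedback inhibitor errfi1a, also a RAS-MAPK target, stood at 220.5, 296 and 427 CPM with DMSO, 113, 81.9 and 72.96 with TDCIPP, 228, 267 and 163 with DOX and 436, 392 and 459.7 with both. TDCIPP libraries were the lowest, and the combined ones overlapped with DMSO and lay above all DOX libraries (log2 interaction 2.78 ± 0.4, edgeR adjusted p = 0.0623). A leucine zipper protein that glucocorticoids induce, tsc22d3, was picked after its values were seen and had 463 ± 253 CPM with DMSO, 62.7 ± 3.595 with TDCIPP, 109.8 ± 65.02 with DOX and 182 ± 20.6 with both (SD, n = 3; log2 interaction 3.61 ± 0.71, edgeR adjusted p = 0.156).

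Other genes had the same form. Glutamine synthetase, glula, stood at 67.2, 168 and 210.1 CPM with DMSO, 8.52, 4.58 and 15.1 with TDCIPP, 18.02, 14.2 and 16.4 with DOX and 15.99, 23.9 and 17.7 with both. It fell with TDCIPP alone (log2 change -3.98, edgeR adjusted p = 0.0299) and DOX alone (-3.2, adjusted p = 0.00874), while TDCIPP on top of DOX gave 0.24 (adjusted p = 0.759). The combined libraries thus lay near the DOX ones and below all DMSO ones (log2 interaction 4.22 ± 0.65, edgeR adjusted p = 0.0797). The HMG-box transcription factor sox4b was at 15.7, 16.2 and 26.6 CPM with DMSO, 2.02, 2.46 and 4.49 with TDCIPP, 1.99, 4.34 and 3.46 with DOX and 4.22, 10.04 and 8.13 with both. It fell with DOX (log2 change -2.58, edgeR adjusted p = 0.0125), and its log2 interaction was 3.89 ± 0.61, edgeR adjusted p = 0.0797.

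**Figure D3:**
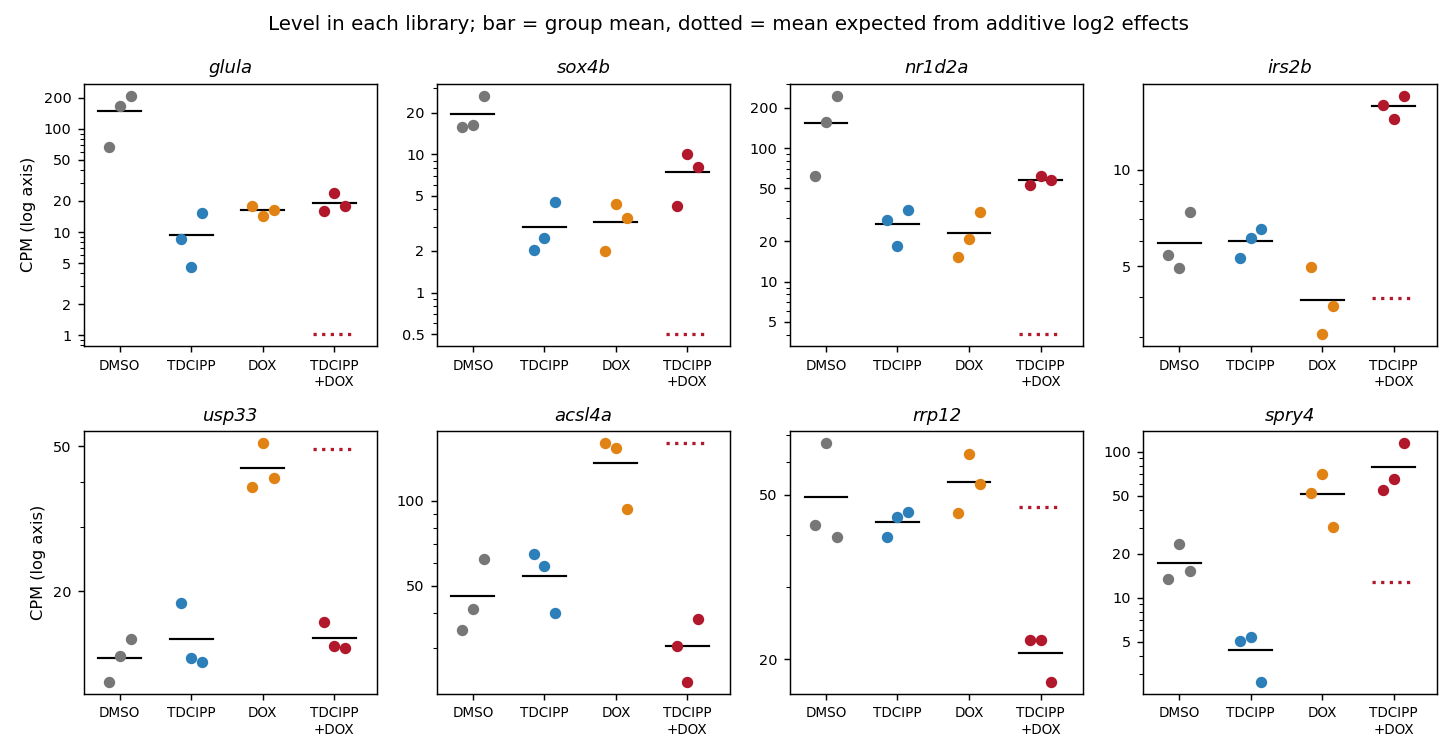
CPM on a log axis in each of the 12 libraries for 8 further genes, drawn in the same way. In glula, sox4b, nr1d2a, irs2b and spry4 the combined libraries lie above the dotted line, and in usp33, acsl4a and rrp12 below it (rrp12 20.7 against 46.7 CPM on average).

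Several genes that were high with DOX were lower when TDCIPP was added. The kinase PERK (eif2ak3), a sensor of unfolded protein in the endoplasmic reticulum, stood at 20.7, 24.5 and 21.3 CPM with DMSO, 36.7, 23.5 and 22.3 with TDCIPP, 43.99, 46.1 and 58.3 with DOX and 17.5, 13.1 and 11.7 with both. All DOX libraries were above all others and all combined libraries were below all others. DOX raised it without TDCIPP (log2 change 1.16, edgeR adjusted p = 0.023) and lowered it with TDCIPP (-0.96, adjusted p = 0.0481), with a log2 interaction of -2.12 ± 0.34, edgeR adjusted p = 0.0797. The deubiquitinase gene usp33 stood at 11.3, 13.3 and 14.8 CPM with DMSO, 18.6, 13.1 and 12.8 with TDCIPP, 38.8, 50.98 and 41.1 with DOX and 16.5, 14.1 and 14.03 with both. DOX raised it (log2 change 1.73, edgeR adjusted p = 0.0042), and TDCIPP lowered it again in the presence of DOX (-1.55, adjusted p = 0.0244; log2 interaction -1.72 ± 0.29, edgeR adjusted p = 0.0867). The DOX libraries were separate from the other 3 groups, which overlapped. The gene prkra, whose product activates the RNA-sensing kinase PKR, had 3.92 ± 0.516 CPM with DMSO, 5.01 ± 1.13 with TDCIPP, 11.9 ± 2.72 with DOX and 3.64 ± 0.304 with both (SD, n = 3), and a log2 interaction of -2.06 ± 0.37, edgeR adjusted p = 0.107. A neutral amino acid transporter, slc43a1a, was at 29.04, 39.1 and 28.4 CPM with DMSO, 34.7, 50.4 and 33.8 with TDCIPP, 77.4, 73.5 and 39.9 with DOX and 13.04, 10.02 and 14.2 with both. Its DOX effect without TDCIPP did not pass (log2 change 0.98, edgeR adjusted p = 0.0599). Combined libraries were below all others, and TDCIPP lowered it with DOX (log2 change -2.36, edgeR adjusted p = 0.0176) but gave 0.3 without it (adjusted p = 0.754; log2 interaction -2.66 ± 0.4, edgeR adjusted p = 0.0774).

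The 34 genes of endoplasmic reticulum stress had a median log2 interaction of -0.91, with 33 below 0 and 0 past the test. Of them 7 (20.6%) lay below the sum at an unadjusted p under 0.05, against 7.32% of all genes. Derl2, which serves the removal of misfolded proteins, had 7.14 ± 0.562 CPM with DMSO, 13.9 ± 4.47 with TDCIPP, 21.1 ± 1.69 with DOX and 13.4 ± 1.21 with both (SD, n = 3; log2 interaction -1.62 ± 0.34, edgeR adjusted p = 0.188). For herpud1, of the same pathway, the values were 27.5, 16.8 and 31.7 CPM with DMSO, 129, 31.6 and 36.8 with TDCIPP, 108, 92.2 and 85.8 with DOX and 97.8, 40.3 and 29.96 with both (log2 interaction -2.15 ± 0.79, edgeR adjusted p = 0.368). TDCIPP replicate 1 was the highest of all libraries there. Without it the median of the list was 0.02 and 2 genes lay below the sum at an unadjusted p under 0.05. That count was 3 without TDCIPP+DOX replicate 3 or the 4 libraries, 4 without DMSO replicate 3 or DOX replicate 2, 11 without TDCIPP replicate 3 and 12 without TDCIPP replicate 2. Over all genes and both directions, 2457 were at that p with all libraries and 2177 without TDCIPP replicate 1. These were 1515 without TDCIPP+DOX replicate 3, 1512 without the 4, 1716 without DMSO replicate 3 and 3065 without DOX replicate 2. They were 2150 without TDCIPP replicate 3 and 2026 without TDCIPP replicate 2.

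Sterol synthesis genes had a median log2 interaction of -2.44. Of 27 tested, 26 were below 0 and 0 passed. Below the sum lay 15 (55.6%) and above it 1 (3.7%) at an unadjusted p under 0.05, against 7.32% and 5.51% of all genes. DOX alone raised 4 of the 27 (3.93% of all genes). Insig1, which holds SREBP factors in the endoplasmic reticulum, stood at 28.1, 13.1 and 29.2 CPM with DMSO, 36.9, 25.2 and 16.8 with TDCIPP, 68.6, 155 and 69.1 with DOX and 25.3, 17.6 and 13.02 with both. It rose with DOX (log2 change 2.06, edgeR adjusted p = 0.0268), fell when TDCIPP was added to DOX (-2.39, adjusted p = 0.0364), and the DOX libraries did not overlap with the others (log2 interaction -2.55 ± 0.62, edgeR adjusted p = 0.245). The sterol enzyme nsdhl had 11.5 ± 2.42 CPM with DMSO, 15.4 ± 5.82 with TDCIPP, 30.9 ± 10.6 with DOX and 12.97 ± 0.541 with both (SD, n = 3; log2 interaction -1.67 ± 0.43, edgeR adjusted p = 0.277). The mevalonate enzyme mvda stood at 5.54, 3.59 and 3.72 CPM with DMSO, 36.8, 3.54 and 4.71 with TDCIPP, 29.6, 84.8 and 25.8 with DOX and 14.8, 10.6 and 7.22 with both (log2 interaction -3.91 ± 1.14, edgeR adjusted p = 0.314). TDCIPP replicate 1 was far above the other TDCIPP libraries in mvda, and DOX replicate 2 was the highest of all. Leaving out TDCIPP replicate 1 moved the median of the list to -0.87 and the value of mvda to -2.05, so the size of this departure rests on that library while its direction does not. The 15 genes below the sum became 4 without TDCIPP replicate 1, 7 without the 4 libraries, 8 without DOX replicate 2, and 9 without DMSO replicate 3 or TDCIPP+DOX replicate 2. They became 22 without TDCIPP replicate 2, 21 without TDCIPP replicate 3 and 5 with limma-voom. Over all genes and both directions, 2457 were at an unadjusted p under 0.05 with all libraries. That total was 2177 without TDCIPP replicate 1, 1512 without the 4, 3065 without DOX replicate 2 and 1716 without DMSO replicate 3. It was 1995 without TDCIPP+DOX replicate 2, 2026 without TDCIPP replicate 2, 2150 without TDCIPP replicate 3 and 1786 with limma-voom.

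Genes of fatty acid synthesis had a median of -0.76, with 30 tested and 0 past the test. Below the sum lay 10 (33.3%) and above it 1 (3.33%) at an unadjusted p under 0.05, against 7.32% and 5.51% of all genes. The median stayed between -0.94 and -0.4 on leaving out 1 library, with -0.4 without DOX replicate 2. The 10 became 6 with limma-voom or without DMSO replicate 3 or TDCIPP+DOX replicate 3. Over all genes and both directions, 1786, 1716 and 1515 were at that p in these settings in turn, against 2457 with all libraries. The acyl-CoA synthetase gene acsl4a stood at 34.9, 41.2 and 62.1 CPM with DMSO, 64.5, 58.5 and 39.96 with TDCIPP, 160.1, 154 and 93.7 with DOX and 30.6, 22.8 and 38.2 with both. DOX raised it (log2 change 1.56, edgeR adjusted p = 0.0209) and TDCIPP lowered it in the presence of DOX (-2.15, adjusted p = 0.032; log2 interaction -2.39 ± 0.44, edgeR adjusted p = 0.123). Its relative acsl1b was at 37.03, 49.7 and 51.1 CPM with DMSO, 39.9, 56.3 and 30.7 with TDCIPP, 61.5, 62.8 and 29.3 with DOX and 3.35, 10.1 and 10.5 with both. Only the combined libraries were low, and the fall passed against both DOX (log2 change -2.67, edgeR adjusted p = 0.0322) and TDCIPP (-2.4, adjusted p = 0.0169), although the interaction did not (-2.56 ± 0.61, edgeR adjusted p = 0.241). Fatty acid synthase, fasn, stood at 71.8, 65.6 and 56.3 CPM with DMSO, 93.01, 66.2 and 43.2 with TDCIPP, 352, 1106 and 438 with DOX and 236, 293 and 98.8 with both (log2 interaction -1.66 ± 0.68, edgeR adjusted p = 0.378, and -0.98 without DOX replicate 2, its highest library). The desaturase gene scd rose with DOX (6.36, edgeR adjusted p = 0.018) and had a log2 interaction of -4.97 ± 1.45, edgeR adjusted p = 0.314, or -2.48 without TDCIPP replicate 1. For glucokinase, gck, the levels were 1.41, 0.339 and 3.81 CPM with DMSO, 25.5, 9.33 and 0.268 with TDCIPP, 386, 153 and 287 with DOX and 110.3, 26.7 and 121 with both. It rose with DOX (log2 change 7.21, edgeR adjusted p = 0.0214), and its log2 interaction was -4.33 ± 1.64, edgeR adjusted p = 0.374.

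Ribosome assembly genes had their lowest levels in the combined group. All 40 tested had a negative interaction, with a median of -0.93 and 0 past the test. Of them 16 (40%) lay below the sum at an unadjusted p under 0.05, against 7.32% of all genes. The per-library mean of the list, on centred log2 CPM, was -0.97, -0.75 and -1.2 in the combined libraries and between 0.04 and 1.15 in the other 9, with no overlap. Median log2 changes were -0.4 for TDCIPP without DOX and -1.35 with it. In the combined group 12 members fell against DOX (1.39% of all genes did) and 13 against TDCIPP (2.16% of all genes). Rrp12, which serves the export of ribosomal precursors, stood at 42.2, 66.7 and 39.6 CPM with DMSO, 39.5, 44.2 and 45.4 with TDCIPP, 45.3, 62.7 and 53.3 with DOX and 22.2, 22.3 and 17.7 with both (log2 interaction -1.17 ± 0.32, edgeR adjusted p = 0.295). The largest subunit of RNA polymerase I, polr1a, had 53.6 ± 12.7 CPM with DMSO, 48.7 ± 2.81 with TDCIPP, 44.7 ± 8.99 with DOX and 19.01 ± 5.08 with both (SD, n = 3), and it fell against DOX (log2 change -1.23, edgeR adjusted p = 0.0421) and against TDCIPP (-1.36, adjusted p = 0.0166). The nucleolar protein gene mybbp1a had 67.5 ± 22.4 CPM with DMSO, 53.4 ± 6.59 with TDCIPP, 41.7 ± 9.34 with DOX and 14.2 ± 2.85 with both (SD, n = 3; log2 interaction -1.21 ± 0.38, edgeR adjusted p = 0.343). The median stayed between -1.4 and -0.74 on leaving out 1 library and was -0.66 without the 4 named ones, where 3 of the 40 lay below the sum at an unadjusted p under 0.05. The 16 became 7 without DMSO replicate 1, DMSO replicate 3 or TDCIPP+DOX replicate 3, 8 without TDCIPP replicate 3, 10 without TDCIPP replicate 2 or TDCIPP+DOX replicate 1, and 35 without DMSO replicate 2. Over all genes and both directions, 2043, 1716, 1515, 2150, 2026, 2222 and 2515 were at that p in these settings in turn. This total was 1512 without the 4 and 2457 with all libraries. Against DOX, TDCIPP changed 403 of all genes in the main fit, and brackets give that number in each other setting. The 12 falls against DOX became 0 with library totals (142), 4 without a low count filter (143) and 37 with DESeq2 (2176). On leaving out libraries they became 31 without DMSO replicate 2 (476), 6 without DMSO replicate 3 (139) and 4 without TDCIPP replicate 1 (234). They became 0 without DMSO replicate 1 (12), TDCIPP replicate 2 (6) or 3 (44), DOX replicate 2 (2), any TDCIPP+DOX library (0), or the 4 together (57). Against TDCIPP, DOX changed 801 of all genes in the main fit, again with brackets for the other settings. The 13 falls against TDCIPP became 3 with library totals (2724) and 23 with DESeq2 (1677). They became 25 without DMSO replicate 2 (774), 8 without TDCIPP+DOX replicate 2 (273) and 6 without the 4 (844). They became 3 without TDCIPP replicate 2 (127), TDCIPP replicate 3 (191) or TDCIPP+DOX replicate 1 (193), and 2 without TDCIPP+DOX replicate 3 (128).

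DNA replication genes had a median log2 interaction of -1.93 and mitosis genes of -3.14. The size of both rested on DOX replicate 3, and so did the direction for mitosis but not for replication. Of 43 replication genes 16 (37.2%), and of 35 mitosis genes 6 (17.1%), lay below the sum at an unadjusted p under 0.05 (7.32% of all genes). In both lists 0 lay above it and 0 passed. Without DOX replicate 3 the medians were -0.38 and 0.72 (0.01 over all genes), and 7 replication genes lay below the sum. That count was 30 without DOX replicate 1, 24 without DOX replicate 2, 9 without TDCIPP replicate 2, and 10 without DMSO replicate 3 or TDCIPP+DOX replicate 2. It was 8 with the replicate block or without the 4, and 4 with limma-voom. Over all genes and both directions, 2457 were at that p with all libraries and 2231 without DOX replicate 3. This total was 3581 without DOX replicate 1, 3065 without DOX replicate 2, 2026 without TDCIPP replicate 2 and 1716 without DMSO replicate 3. It was 1995 without TDCIPP+DOX replicate 2, 1909 with the block, 1512 without the 4 and 1786 with limma-voom. The replicative helicase gene mcm2 stood at 11.8, 6.01 and 3.14 CPM with DMSO, 8.55, 13.6 and 12.2 with TDCIPP, 13.02, 35.5 and 69.5 with DOX and 12.3, 9.38 and 17.3 with both (log2 interaction -2.32 ± 0.81, edgeR adjusted p = 0.366), and mcm5, of the same helicase, had 8.37, 21.1 and 53.2 CPM in DOX (log2 interaction -2.46 ± 0.79, edgeR adjusted p = 0.351). For fen1, the flap endonuclease, the DOX libraries held 5.09, 12.1 and 27.4 CPM against 6.64, 5.899 and 7.996 in the combined ones. The chromatin assembly gene chaf1b had 2.63, 2.48 and 16.4 CPM in DOX. DOX replicate 3 was the highest library in each of these 4 genes. Without it their log2 interactions were -1.63 (mcm2), -1.57 (mcm5), -1.47 (fen1) and -1.46 (chaf1b). In mitosis, the proliferation antigen mki67 stood at 1.45, 1.89 and 1.93 CPM with DMSO, 1.72, 5.44 and 8.61 with TDCIPP, 2.63, 3.58 and 19.8 with DOX and 7.37, 8.96 and 15.8 with both (log2 interaction -1.28 ± 1.04, edgeR adjusted p = 0.595, and 0.2 without DOX replicate 3). The spindle motor gene kif4 had 2.25, 0.693 and 42.1 CPM in DOX, the checkpoint gene bub3 8.28, 12.8 and 37.3, and the cytokinesis regulator ect2 0.702, 0.474 and 33.6. The log2 interaction of ect2 was -4.14 ± 1.7 with all libraries and 0.15 without DOX replicate 3. Without that library it was -0.56 for kif4 and -1.01 for bub3. The combined libraries held 5.19, 3.71 and 6.12 CPM of kif4. The oocyte list moved as the mitosis list did, with a median of -4.61 that became 0.56 without DOX replicate 3.

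**Figure D4:**
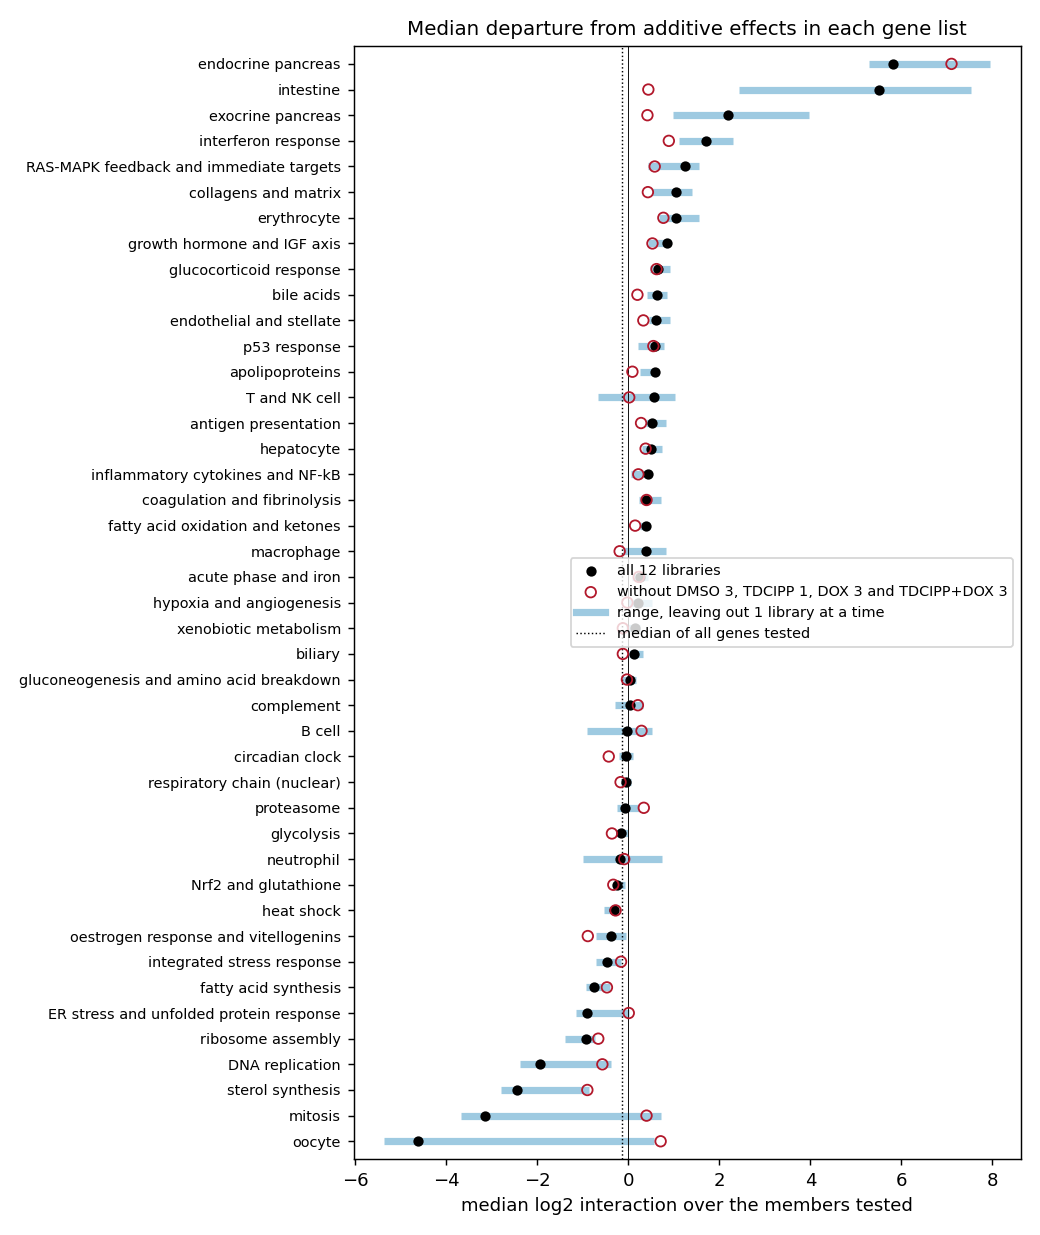
Median log2 interaction over the tested members of each gene list (black), with its range when each of the 12 libraries is left out in turn (blue bar) and its value without 4 libraries (red ring). The ribosome assembly, fatty acid synthesis and sterol medians stay below 0 and the glucocorticoid, interferon and RAS-MAPK medians above 0 throughout, whereas the oocyte and mitosis medians cross 0.

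Targets of RAS-MAPK signalling had a positive median interaction. Of 32 tested, 9 (28.1%) were above the sum and 0 below at an unadjusted p under 0.05 (5.51% and 7.32% of all genes). The median was 1.24, and 0 passed. DOX alone raised 6 members (3.93% of all genes) and DOX on top of TDCIPP raised 12 (2.03% of all genes rose there), with median log2 changes of 1.03 and 2.07. Spry4, a sprouty inhibitor of the cascade, stood at 13.3, 23.3 and 15.3 CPM with DMSO, 5.06, 5.38 and 2.66 with TDCIPP, 52.04, 69.99 and 30.5 with DOX and 54.8, 65.1 and 114 with both. TDCIPP libraries were the lowest without DOX, and the DOX and combined libraries overlapped, so that the DOX effect was 1.55, edgeR adjusted p = 0.0427, without TDCIPP and 4.16, edgeR adjusted p = 0.00319, with it (log2 interaction 2.61 ± 0.56, edgeR adjusted p = 0.198). The ERK phosphatase gene dusp6 was at 17.5, 26.2 and 42.6 CPM with DMSO, 13.8, 12.97 and 17.7 with TDCIPP, 28.2, 47.6 and 21.5 with DOX and 99.9, 54.02 and 145 with both (log2 interaction 2.58 ± 0.6, edgeR adjusted p = 0.237). It rose with DOX in the presence of TDCIPP (log2 change 2.75, edgeR adjusted p = 0.00976), while its DOX effect without TDCIPP was 0.17 (adjusted p = 0.822). The related dusp4 had 2.55 ± 0.381 CPM with DMSO, 1.15 ± 0.705 with TDCIPP, 19.3 ± 6.88 with DOX and 31.4 ± 8.84 with both (SD, n = 3). The immediate early gene egr2a stood at 1.32, 3.54 and 0.582 CPM with DMSO, 0.613, 0.867 and 0.439 with TDCIPP, 43.2, 62.4 and 23.3 with DOX and 37.4, 58.7 and 112 with both. Both rose with DOX without and with TDCIPP, and their log2 interactions were 1.86 ± 0.62 and 2.2 ± 0.87 (adjusted p = 0.353 and 0.378). TDCIPP+DOX replicate 3 was the highest library in dusp6, dusp4, egr2a and spry4. Without it the median of the list was 0.44 and 7 members rose with DOX on top of TDCIPP, and without TDCIPP replicate 2 that count was 6. With library totals it was 19. Of all genes, DOX on top of TDCIPP changed 128, 127 and 2724 in these settings in turn, against 801 in the main fit. The median interaction was 0.68 without DMSO replicate 1 and 0.58 without the 4 libraries.

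In the growth hormone and IGF list 7 of 28 members (25%) were above the sum and 1 (3.57%) below at an unadjusted p under 0.05. Of all genes 5.51% were above and 7.32% below. The list had a median of 0.86, with 0 past the test. The median was 0.44 without DMSO replicate 1, 0.57 without TDCIPP+DOX replicate 3 and 0.53 without the 4 libraries. The insulin receptor substrate gene irs2b stood at 5.3997, 4.95 and 7.39 CPM with DMSO, 5.302, 6.103 and 6.53 with TDCIPP, 4.97, 3.07 and 3.74 with DOX and 15.9, 14.4 and 17.1 with both. Only the combined libraries were high, above all others. It rose against DOX (log2 change 2.01, edgeR adjusted p = 0.0176) and against TDCIPP (1.4, adjusted p = 0.0127), and its log2 interaction was 1.99 ± 0.34, edgeR adjusted p = 0.0867. The growth factor gene igf2a had 277 ± 84.7 CPM with DMSO, 167 ± 82.2 with TDCIPP, 42.4 ± 16.5 with DOX and 142 ± 5.805 with both (SD, n = 3; log2 interaction 2.47 ± 0.56, edgeR adjusted p = 0.213). For cishb, a STAT5 target that inhibits cytokine signalling, the levels were 13.5 ± 1.56 CPM with DMSO, 5.21 ± 2.47 with TDCIPP, 0.711 ± 0.352 with DOX and 1.74 ± 0.162 with both (log2 interaction 2.67 ± 0.59, edgeR adjusted p = 0.207). DOX lowered both igf2a (log2 change -2.71, edgeR adjusted p = 0.00879) and cishb (-4.25, adjusted p = 0.00379).

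Interferon response genes had a median log2 interaction of 1.71, the largest positive one among the lists that do not mark another organ. Of 23 tested, 0 passed. Above the sum lay 14 (60.9%) and below it 1 (4.35%) at an unadjusted p under 0.05, against 5.51% and 7.32% of all genes. The median TDCIPP effect was 0.27 without and 2.83 with DOX, where 6 members rose (0.71% of all genes did). Per-library means on centred log2 CPM were -0.95, -0.86 and -1.01 in DOX and 0.3, 0.96 and 2.49 in the combined group. The antiviral gene rsad2 (viperin) stood at 8.26, 3.78 and 7.35 CPM with DMSO, 4.69, 1.595 and 7.39 with TDCIPP, 1.37, 1.97 and 1.38 with DOX and 2.97, 13.7 and 48.1 with both (log2 interaction 4.28 ± 1.16, edgeR adjusted p = 0.294). The signal transducer stat2 was at 52.4, 48.4 and 70.8 CPM with DMSO, 50.5, 29.4 and 86.1 with TDCIPP, 30.2, 18.6 and 19.9 with DOX and 54.03, 75.5 and 80.5 with both, and it rose when TDCIPP was added to DOX (log2 change 1.61, edgeR adjusted p = 0.0485; log2 interaction 1.66 ± 0.51, edgeR adjusted p = 0.335). Stat1a, its partner, had 33.5 ± 5.04 CPM with DMSO, 34.7 ± 6.56 with TDCIPP, 27.1 ± 6.75 with DOX and 57.2 ± 5.17 with both (SD, n = 3), and the combined libraries were above all others (log2 interaction 1.03 ± 0.32, edgeR adjusted p = 0.341). TDCIPP+DOX replicate 3 had the highest list mean of all 12 libraries and was the highest in rsad2 and stat1a but not in stat2. Without it the median of the list was 1.11 and 4 members lay above the sum at an unadjusted p under 0.05. Without the 4 libraries the median was 0.89 and 2 members did, and with limma-voom 7 did. Over all genes and both directions, 1515, 1512 and 1786 were at that p in these settings in turn, against 2457 with all libraries. Of all genes, TDCIPP with DOX changed 403 in the main fit, and brackets give that number in each other setting. The 6 rises became 0 without DMSO replicate 1 (12), TDCIPP replicate 2 (6) or 3 (44), DOX replicate 2 (2) or any combined library (0). They became 1 without DMSO replicate 3 (139) and 3 without DOX replicate 3 (476). With library totals (142) or limma-voom (424) they were 3, and with DESeq2 (2176) 15.

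**Figure D5:**
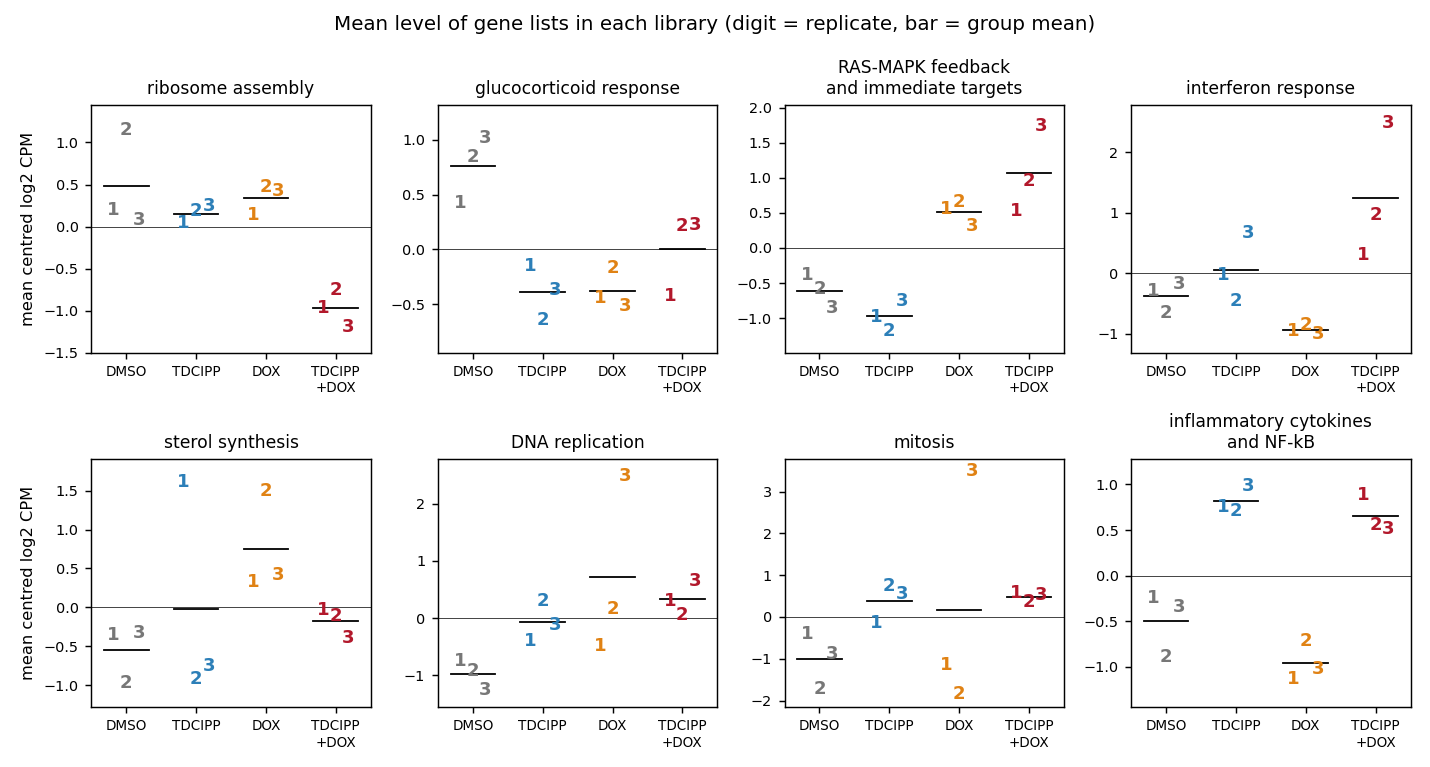
Mean centred log2 CPM of 8 gene lists in each library, with replicates shown as digits and group means as bars. The combined libraries are apart from the other 3 groups in ribosome assembly, TDCIPP replicate 1 is high in sterol synthesis, and DOX replicate 3 is high in DNA replication and mitosis.

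Inflammatory genes, on which the series title puts its question, were compared between the backgrounds without and with DOX. The median TDCIPP effect over 36 genes was 1.66 without DOX and 1.56 with it. Their median log2 interaction was 0.44, against -0.13 over all genes, with 0 past the test. Above the sum lay 3 (8.33%) and below it 0 at an unadjusted p under 0.05, against 5.51% and 7.32% of all genes. On leaving out 1 library the median interaction ran from 0.05 (TDCIPP+DOX replicate 1) to 0.5 (DOX replicate 1). TDCIPP with DOX raised 6 members (0.71% of all genes) and TDCIPP without DOX raised 0 (0.0104% of all genes), while 0 passed the test of that difference. Of all genes, TDCIPP with DOX changed 403 in the main fit, and brackets give that number in each other setting. The 6 became 0 without any 1 combined library (0). They became 1 without DMSO replicate 1 (12) or 3 (139), TDCIPP replicate 1 (234), 2 (6) or 3 (44), or DOX replicate 2 (2). They became 2 without DOX replicate 1 (413), the 4 libraries (57) or a low count filter (143). The count was 17 with DESeq2 (2176), 3 with limma-voom (424) and 1 with the replicate block (256). The chemokine gene cxcl8a stood at 0.726, 0.873 and 0.762 CPM with DMSO, 6.62, 5.83 and 8.51 with TDCIPP, 1.14, 1.46 and 0.35 with DOX and 3.86, 3.38 and 3.17 with both (log2 interaction -1.32 ± 0.62, edgeR adjusted p = 0.39). All libraries with TDCIPP were above all libraries without it. Interleukin 1 beta, il1b, was at 1.77, 0.485 and 0.762 CPM with DMSO, 4.75, 3.95 and 5.61 with TDCIPP, 0.0585, 0.182 and 0.613 with DOX and 8.702, 4.07 and 1.21 with both (log2 interaction 1.73 ± 1.14, edgeR adjusted p = 0.505), and it rose with TDCIPP in the presence of DOX (log2 change 3.97, edgeR adjusted p = 0.0485). The cytokine gene tnfa was below 2 CPM in every library (0.245 ± 0.0645 CPM with DMSO, 0.845 ± 0.742 with TDCIPP, 0.0195 ± 0.0184 with DOX and 0.123 ± 0.102 with both; SD, n = 3) and had a log2 interaction of 0.72 ± 1.43, edgeR adjusted p = 0.851. The 15 genes tested of the neutrophil list had a median TDCIPP effect of 2.21 without and 1.98 with DOX. Their median interaction was -0.18, and it ran from -1 without TDCIPP+DOX replicate 1 to 0.75 without TDCIPP replicate 3. The 15 include cpa5, named after its values were seen, which is also in the exocrine pancreas list (TDCIPP effect -0.92 without DOX and 0.99 with it). The part of neutrophils in the inflammatory values was not tested.

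Genes of fatty acid oxidation and ketones had a median log2 interaction of 0.38. It ran from 0.26 to 0.46 on leaving out 1 library and was 0.15 without the 4 libraries. Of 34 tested, 7 (20.6%) lay above the sum and 0 below at an unadjusted p under 0.05 (5.51% and 7.32% of all genes). Cpt1ab, which carries fatty acids into mitochondria, stood at 39.9, 35.3 and 39.6 CPM with DMSO, 38.5, 30.5 and 40.1 with TDCIPP, 15.4, 5.29 and 4.66 with DOX and 29.5, 52.4 and 46.98 with both. It fell with DOX (log2 change -2.18, edgeR adjusted p = 0.0183) and rose when TDCIPP was added (2.34, adjusted p = 0.034), and only the DOX libraries were apart (log2 interaction 2.42 ± 0.57, edgeR adjusted p = 0.24). The pyruvate dehydrogenase kinase genes pdk4 and pdk2b had log2 interactions of 1.39 ± 0.4 and 2.67 ± 0.81 (edgeR adjusted p = 0.314 and 0.335). The gluconeogenic gene pck1 spread widely: 118, 682 and 409 CPM with DMSO, 11.7, 1.32 and 0.829 with TDCIPP, 14.9, 228 and 164 with DOX and 33.1, 109 and 57.4 with both (log2 interaction 5.42 ± 1.6, edgeR adjusted p = 0.327). For vtg2, a yolk precursor, the mean levels were 63272 ± 13904 CPM with DMSO, 43554 ± 11450.0 with TDCIPP, 31055 ± 14297 with DOX and 11544 ± 3078 with both (SD, n = 3; log2 interaction -0.89 ± 0.59, edgeR adjusted p = 0.508), and near-identical vitellogenin copies may share reads.

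Collagen and matrix genes had a median of 1.05, with 0 of 38 past the test. Above the sum lay 9 (23.7%) and below it 0 at an unadjusted p under 0.05, against 5.51% and 7.32% of all genes. The matricellular growth factor gene ctgfa stood at 2.72, 3.104 and 6.18 CPM with DMSO, 1.35, 3.75 and 2.83 with TDCIPP, 2.28, 1.72 and 1.97 with DOX and 7.19, 9.51 and 17.8 with both. The combined libraries were above all others, and it rose against DOX (log2 change 2.53, edgeR adjusted p = 0.0364) and TDCIPP (2.12, adjusted p = 0.0306; log2 interaction 3.13 ± 0.66, edgeR adjusted p = 0.188). The smooth muscle and myofibroblast genes tagln and acta2 were lowest in DOX, at 3.04, 0.73 and 1.62 and 3.04, 0.839 and 2.61 CPM, and had log2 interactions of 2.65 ± 0.74 and 3.1 ± 0.9 (adjusted p = 0.301 and 0.314). The median of the list was 0.52 without DMSO replicate 3 and 0.43 without the 4 libraries. Without DMSO replicate 3, 5 members were above the sum at an unadjusted p under 0.05. Over all genes and both directions 1716 were at that p there, against 2457 with all libraries. Markers of endothelial and stellate cells had a median of 0.6 (0.46 to 0.91 on leaving out 1 library and 0.33 without the 4). Of 20 tested, 5 (25%) lay above the sum and 0 below at an unadjusted p under 0.05 (5.51% and 7.32% of all genes). The part of these cells in the collagen values was not tested.

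Transcripts of other organs gave some of the widest departures. Of 14 endocrine pancreas genes 10 passed the low count filter. Of these 10, 7 (70%) lay above the sum at an unadjusted p under 0.05, against 5.51% of all genes. The median of the 10 was 5.82, and 1 of them, sst1.1, passed (0.0157% of all genes passed above the sum). In gcgb and sst2, picked after their values were seen, there were 0 reads with TDCIPP and 1 and 2 with DOX. Their fitted values thus depend on how near-zero counts are handled. With DMSO they had 54 and 34 reads and with both treatments 53 and 58. They and sst1.1 thus passed the low count filter only through the DMSO and combined groups. High levels in those groups also make the interaction positive, so the share of 70% and the median of 5.82 add no support. Insulin, ins, stood at 6.67, 11.4 and 1.61 CPM with DMSO, 0.0306, 0.555 and 0.0975 with TDCIPP, 0.0292, 0 and 0.438 with DOX and 4.91, 1.03 and 2.198 with both (log2 interaction 8.85 ± 1.85, edgeR adjusted p = 0.187), so that its libraries with 1 treatment were below 1 CPM and the others above. The median was 7.1 without the 4 libraries named above. Of 21 intestine genes 16 (76.2%) were above the sum at an unadjusted p under 0.05, against 5.51% of all genes. The median of this list, 5.51, was 0.44 without those 4 libraries. The exocrine pancreas list had a median of 2.18, or 0.42 without them. How much pancreas or gut each dissected liver carried was not measured, and its part in these values was not tested.

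Esm1 and lepa, which DOX raised from near 0, gave no departure that passed. Esm1, an endothelial proteoglycan gene, stood at 0.998, 0.436 and 0.986 CPM with DMSO, 0.858, 0.0347 and 0.463 with TDCIPP, 730.3, 234 and 165 with DOX and 796, 645 and 1279 with both (log2 interaction 2.09 ± 1.06, edgeR adjusted p = 0.409). In the 6 libraries without DOX, lepa, which encodes leptin, had 0 reads. It stood at 79.2, 19.6 and 8.98 CPM with DOX and 52.8, 34.8 and 113 with both. Its interaction cannot be estimated, since its TDCIPP effect without DOX has no reads behind it, and its TDCIPP effect with DOX was 0.9, edgeR adjusted p = 0.514.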

How the data were processed

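RNA-seq of zebrafish liver gave 12 libraries, grouped by the treatment label into 4 groups of 3. Per the labels' protocols, RNA was extracted with Trizol and NEBNext Ultra libraries were prepared. The values are raw counts per gene, deposited without normalization. The authors aligned with HISAT, per the submitters' processing notes. Its version, the counter, strand use, build and annotation were not given in the sources used here. By header each of the 12 count columns matched 1 library, with 0 unmatched. Of 34028 genes, 31895 carry Ensembl identifiers and 2133 are other gene models. From a reference table, 5571 of 8443 unnamed genes took a name, as did 17 names garbled into dates and 1275 clone names.

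The model, in edgeR 4.0.16 under R 4.3.3, was a quasi-likelihood fit of the 4 group means to the counts of all 12 libraries, with TMM factors, filterByExpr, 8 residual degrees of freedom and no replicate block (common dispersion 0.297). Tests of the interaction and the 4 separate effects were 2-sided, Benjamini-Hochberg adjusted over 19160 genes, at a threshold of 0.05. SE is the fitted log2 value over the square root of its F. CPM are TMM-scaled, and the additive expectation is TDCIPP times DOX over DMSO of the group means. Library depth was 28621536 to 40877342 reads. The fit was tested on simulated data.

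The 43 gene lists (1252 of 1306 entries matched, 1217 distinct genes) are described by counts and medians. Members, lists and the naming rule were chosen with earlier results of these data known. The rule named the 6 smallest p-values in each direction among named genes that reached a group mean of 5 CPM, called ones first, up to 3 members by p of each list whose median differed by at least 0.5 from that of all genes (27 lists), and 16 fixed genes. It named 97, not all of which are printed. Genes picked outside it are marked.

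Same-numbered libraries were not treated as pairs. Alternatives were DESeq2 size factors, library totals, no low count filter, DESeq2 1.42.0, limma-voom (limma 3.58.1), a replicate block, leaving out each library, leaving out 4 libraries with oocyte or intestine transcripts (DMSO replicate 3, TDCIPP replicate 1, DOX replicate 3, TDCIPP+DOX replicate 3), and a threshold of 0.1. Counts of list members under these alternatives were added after seeing the data. No batch, date, sex or hour of collection is in the labels used here, so none could be fitted.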

Additional observations from a re-analysis of the deposited data

Results flagged for a closer look

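In 5 genes the effect of TDCIPP differed between the backgrounds without and with DOX by the test of the difference itself, the edgeR interaction. For per2 the difference was -3.25 on the log2 scale (adjusted p = 0.00788), with 2.15 without and -1.1 with DOX. For Novel00094 it was -3.5 (adjusted p = 0.0469), with 3.27 and -0.23. For PLEKHH3 it was 2.72 (adjusted p = 0.0469), with -1.26 and 1.46. For si:dkey-22f5.9 it was 2.67 (adjusted p = 0.0469), with -1.85 and 0.82. For sst1.1 it was 11.74 (adjusted p = 0.0469), a value that rests on 1 read in TDCIPP and 5 in DOX.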

How the results depend on the processing

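Of 1158 interactions of 61 named genes under the alternatives, 3 changed direction: ect2 (0.15) and mki67 (0.2) without DOX replicate 3 and tnfa (-0.02) without TDCIPP+DOX replicate 1. Leaving out 1 library at a time gave -4.7 to 0.15 for ect2, -1.7 to 0.2 for mki67 and -0.02 to 1.49 for tnfa. The number of genes past the test depended on the setting. Genes above the sum numbered 3, and 13 without a low count filter, 194 with DESeq2 and 18 at an adjusted p under 0.1. They numbered 0 with limma-voom and without the 4 libraries with oocyte or intestine transcripts. In either direction, 1512 genes lay at an unadjusted p under 0.05 without these 4, against 2457 with all libraries. Genes below the sum numbered 2, and 92 with DESeq2, 6 at an adjusted p under 0.1, 1 with the replicate block, and 0 with limma-voom and without the 4 libraries. Leaving out 1 library at a time gave 0 to 7 above and 0 to 3 below. All 5 calls were shared by DESeq2 size factors, DESeq2 and the unfiltered fit, 2 by library totals, 4 by the fit without DOX replicate 3 and 0 by the fits without DMSO replicate 2, DMSO replicate 3 or any TDCIPP+DOX library, which called 0 genes.

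The TDCIPP effect without DOX (8 genes) gave 17 unfiltered, 419 with DESeq2, 3 with limma-voom, 13 with the block, 0 without the 4 libraries, 28 at 0.1, and 0 to 20 on leaving out 1 library. With DOX (403 genes) it gave 142 with library totals, 143 unfiltered, 2176 with DESeq2, 256 with the block, 57 without the 4, 1522 at 0.1, and 0 to 476, with 0 without any 1 TDCIPP+DOX library, 2 without DOX replicate 2, 6 without TDCIPP replicate 2, 12 without DMSO replicate 1, 44 without TDCIPP replicate 3, 234 without TDCIPP replicate 1 and 139 without DMSO replicate 3. The DOX effect without TDCIPP (1315 genes) gave 5033 with library totals, 822 unfiltered, 2715 with DESeq2, 842 with limma-voom, 684 without the 4, 2599 at 0.1, and 209 to 1306. With TDCIPP (801 genes) it gave 2724 with library totals, 1677 with DESeq2, 1396 at 0.1, and 127 to 1339. Library totals moved the median DOX effect of all genes from 0.12 to 0.83 and that of the interaction from -0.13 to -0.19. Summed CPM of the oestrogen response and vitellogenin list ran from 489144 to 726150.5 per library in DMSO and from 283389 to 464064 in TDCIPP. These sums ran from 126818.5 to 342767 in DOX and from 71253 to 127888.5 in TDCIPP+DOX. The part of these transcripts in the shifts was not tested, nor was any other cause.

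Same-numbered libraries had correlations of their deviations from the group means between -0.225 and 0.182, and 3 of 12 libraries correlated best with one of their own number, so the labels' numbers were not taken as pairs. With the replicate block 3 genes passed, 1 of them (per2) among the 5. List medians moved by more than the spread between libraries in 71 of 817 cases. The coefficient of variation was 54.5%, and a gene that did not pass is not shown to be additive.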
